A study of Mus musculus with 123 samples.

Results

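The genes described here encode 4 keratins (Krt8, Krt18, Krt19 and Krt7), the 3 ERM proteins ezrin, moesin and radixin (Ezr, Msn and Rdx) and the 14-3-3 protein stratifin (Sfn). They were chosen by symbol, as 8 of the 29022 genes in the table of unique molecular identifier (UMI) counts, and their levels were followed in every mouse embryo of the series. All 8 passed the detection filter and were tested in every comparison.

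Keratins assemble as obligate pairs of a type II chain (Krt8, Krt7) with a type I chain (Krt18, Krt19), and the Krt8 and Krt18 pair is the first intermediate filament of the embryo, best known from the trophectoderm (TE), the outer epithelium of the blastocyst. ERM proteins tie actin filaments to the plasma membrane, and ezrin sits in the apical domain that outer blastomeres acquire at compaction. Stratifin, also called 14-3-3 sigma, is an epithelial 14-3-3 adaptor that binds phosphorylated partners, keratins among them.

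Embryos came from an Oct4 line (the gene is Pou5f1) and a Sox2 line, and single compacted morulae or single inner cell masses (ICMs) were sequenced by a 3′-enriched UMI method. In both lines the 48 control (Ctrl) embryos and the 48 knockout (KO) embryos had mothers whose floxed copies were deleted in oocytes by Zp3-Cre, a Cre driven by an oocyte promoter. Ctrl embryos therefore lacked the maternal product and carried an intact paternal allele, and KO embryos were maternal-zygotic nulls whose paternal null allele was marked with mKO2 (Oct4 line) or EGFP (Sox2 line). A further 27 embryos were labelled MWT, 20 in the Oct4 line and 7 in the Sox2 line; the study's text mentions wild-type embryos beside the maternal knockouts but does not spell out this label.

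Morulae were whole embryos at E2.75. ICMs, called early at E3.75 and late at E4.5, came from embryos taken at E2.5 and grown in KSOM with 1 µM of the MEK inhibitor PD0325901, and were isolated by immunosurgery, which is meant to remove TE. A stage difference is therefore also one of culture and of isolation. Each Ctrl and KO group held 8 embryos at each stage, and the MWT groups held 7 Oct4 morulae, 5 Oct4 early ICMs, 8 Oct4 late ICMs and 7 Sox2 early ICMs. The mothers were superovulated and the labels give the strain as B6C3F1. For the Oct4 MWT ICMs the titles and source names disagree on the stage, so their embryonic day is not settled, and the titles were used. The labels of the Oct4 MWT early ICMs name no inhibitor.

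Depth ran from 525755 to 1344035 UMIs per embryo, with a median of 897407. Pou5f1 averaged 0.432, 1.03 and 0.156 CPM in Oct4-KO morulae, early ICMs and late ICMs, against 21.1, 77.7 and 43.8 in their Ctrl groups. Sox2 averaged 1.56, 24.3 and 16.7 CPM in Sox2-KO embryos of those stages, against 13.7, 106 and 174 in Ctrl. CPM here is counts (UMIs) scaled to a common library size by the TMM method. Because each library is a single embryo or ICM, fewer cells of a type and less RNA per cell cannot be told apart.

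Krt8 lies on the minus strand at chr15:101996698-102004482 (mm10) and Krt18 on the plus strand at chr15:102028180-102032027, with 23698 bp between them. Krt7 lies on the same chromosome, at chr15:101411043-101430313, and its end is 566385 bp from the start of Krt8. Ezr lies at chr17:6738041-6782784. The promoters of these genes are printed because Krt8 and Krt18 are neighbours whose levels moved together, Krt7 shared their late response, and Ezr was lower in Oct4-KO late ICMs. Each sequence runs 5′ to 3′ on the gene's own strand from 250 bases before to 50 bases after the RefSeq start site in GRCm38.p6, at chr15:102004293-102004592, chr15:102027966-102028265, chr15:101412153-101412452 and chr17:6782731-6783030 in turn. Capitals mark matches to the searched motifs.
Krt8: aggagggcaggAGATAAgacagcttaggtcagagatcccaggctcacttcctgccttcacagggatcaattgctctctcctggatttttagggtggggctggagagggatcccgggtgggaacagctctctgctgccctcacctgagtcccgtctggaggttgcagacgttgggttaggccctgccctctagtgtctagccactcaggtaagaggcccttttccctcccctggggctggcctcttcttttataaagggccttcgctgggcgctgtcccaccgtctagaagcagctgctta
Krt18: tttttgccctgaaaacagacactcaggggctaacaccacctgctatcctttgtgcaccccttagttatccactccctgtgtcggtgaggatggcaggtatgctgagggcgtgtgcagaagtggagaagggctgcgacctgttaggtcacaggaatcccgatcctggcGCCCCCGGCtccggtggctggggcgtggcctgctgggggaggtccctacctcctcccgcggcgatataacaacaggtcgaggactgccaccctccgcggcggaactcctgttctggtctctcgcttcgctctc
Krt7: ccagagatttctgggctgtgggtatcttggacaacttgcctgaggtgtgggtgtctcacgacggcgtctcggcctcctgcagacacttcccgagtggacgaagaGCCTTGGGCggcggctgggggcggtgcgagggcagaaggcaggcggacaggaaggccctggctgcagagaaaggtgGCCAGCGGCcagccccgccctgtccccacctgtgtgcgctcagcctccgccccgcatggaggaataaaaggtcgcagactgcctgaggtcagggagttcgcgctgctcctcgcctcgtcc
Ezr: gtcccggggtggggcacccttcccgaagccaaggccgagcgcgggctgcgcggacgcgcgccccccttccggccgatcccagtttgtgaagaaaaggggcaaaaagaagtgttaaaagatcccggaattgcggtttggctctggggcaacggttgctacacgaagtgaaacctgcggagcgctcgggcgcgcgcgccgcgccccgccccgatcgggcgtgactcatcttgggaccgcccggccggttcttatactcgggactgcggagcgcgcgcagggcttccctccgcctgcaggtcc

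Several motif spellings were searched on both strands. GCCNNNGGC, a site bound by AP-2 factors, occurred at -83 in Krt18 and at -146 and -70 in Krt7, counted from the start site, and was present in 16.6% of the 32851 promoters in the table. AGATAA, the letters recognised by Gata3 and its relatives, occurred at -239 in Krt8 and in 11.2% of promoters. No match to these letters, to GGAATG (TEAD, 14.7% of promoters), to ATGCAAAT (octamer, 1.74%) or to CACACCC (KLF, 7.95%) was found in the Ezr window. Of the 8 genes, 7 had a promoter in the table, and Krt19 was not matched. The Msn promoter also held a GCCNNNGGC match, at -82.

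Some of the counts are shared with neighbours. The setting of strand in the authors' counting is not given in the sources used here, so UMIs of Krt8 and of Gm36026, which overlap by 271 bp on opposite strands, cannot be told apart, nor can those of Krt7 and the antisense gene Gm671 over 1269 bp. Krt8 also has a pseudogene in the annotation, Krt8-ps. Ezr overlaps Sytl3 by 4 bp, and Msn spans the small RNA gene Gm24718. Krt18, Krt19, Rdx and Sfn overlap no other annotated gene.

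Loss of Oct4 was followed by higher levels of Krt8, Krt18 and Krt7 in late ICMs. Krt8 ran from 349.9 CPM through a median of 958 to 1290 CPM in the 8 Oct4-KO late ICMs, and from 41.0 through 280.0 to 400.3 CPM in the 8 Ctrl late ICMs. One KO ICM lay inside the Ctrl range and the other 7 lay above it. The difference was a log2 fold change of 1.98 ± 0.44 (SE), a 3.94-fold rise (edgeR quasi-likelihood test with Benjamini-Hochberg adjustment, adjusted p = 0.000187).

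Krt18, the type I partner of Krt8, ran from 310.4 through 1082 to 1155 CPM in Oct4-KO late ICMs and from 18.4 through 176 to 287 CPM in Ctrl. The groups did not overlap. The edgeR log2 fold change was 2.60 ± 0.54 (adjusted p = 5.35e-05), a 6.07-fold rise. Krt7, a type II keratin of simple epithelia, ran from 1.59 through 16.3 to 33.6 CPM in KO and from 0 through 0 to 10.1 CPM in Ctrl, where 6 of 8 ICMs held no Krt7 UMI. It summed to 99 UMIs in KO and 9 in Ctrl, with an edgeR log2 fold change of 3.32 ± 0.77 (adjusted p = 0.000338). Ctrl embryo 2-9 held 8 of the 9 Ctrl UMIs, and the fitted change ranged from 3.09 to 5.60 as single embryos were left out.

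Krt19, a type I keratin that lacks the tail domain, did not pass in this comparison. Its CPM ran from 0 through 6.11 to 38.7 in Oct4-KO late ICMs and from 0 through 2.93 to 21.6 in Ctrl, so the ranges overlapped widely (log2 fold change 1.22 ± 0.61, adjusted p = 0.119). Without Ctrl embryo 2-1 it would have been called (adjusted p = 0.0269). Of the 8 genes, 6 were called in Oct4-KO late ICMs, meaning an adjusted p under 0.05 with a log2 fold change of at least 1 in either direction. Over all 14053 genes tested the called share was 18.1%, with 9.25% higher and 8.85% lower, and 5 of the 8 genes were higher and 1 was lower. Scaling by total UMIs moved all genes called from 1300 higher and 1244 lower to 1108 and 1430. The median log2 fold change was 1.54 over the 8 genes and -0.01 over all genes.

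**Figure D1:**
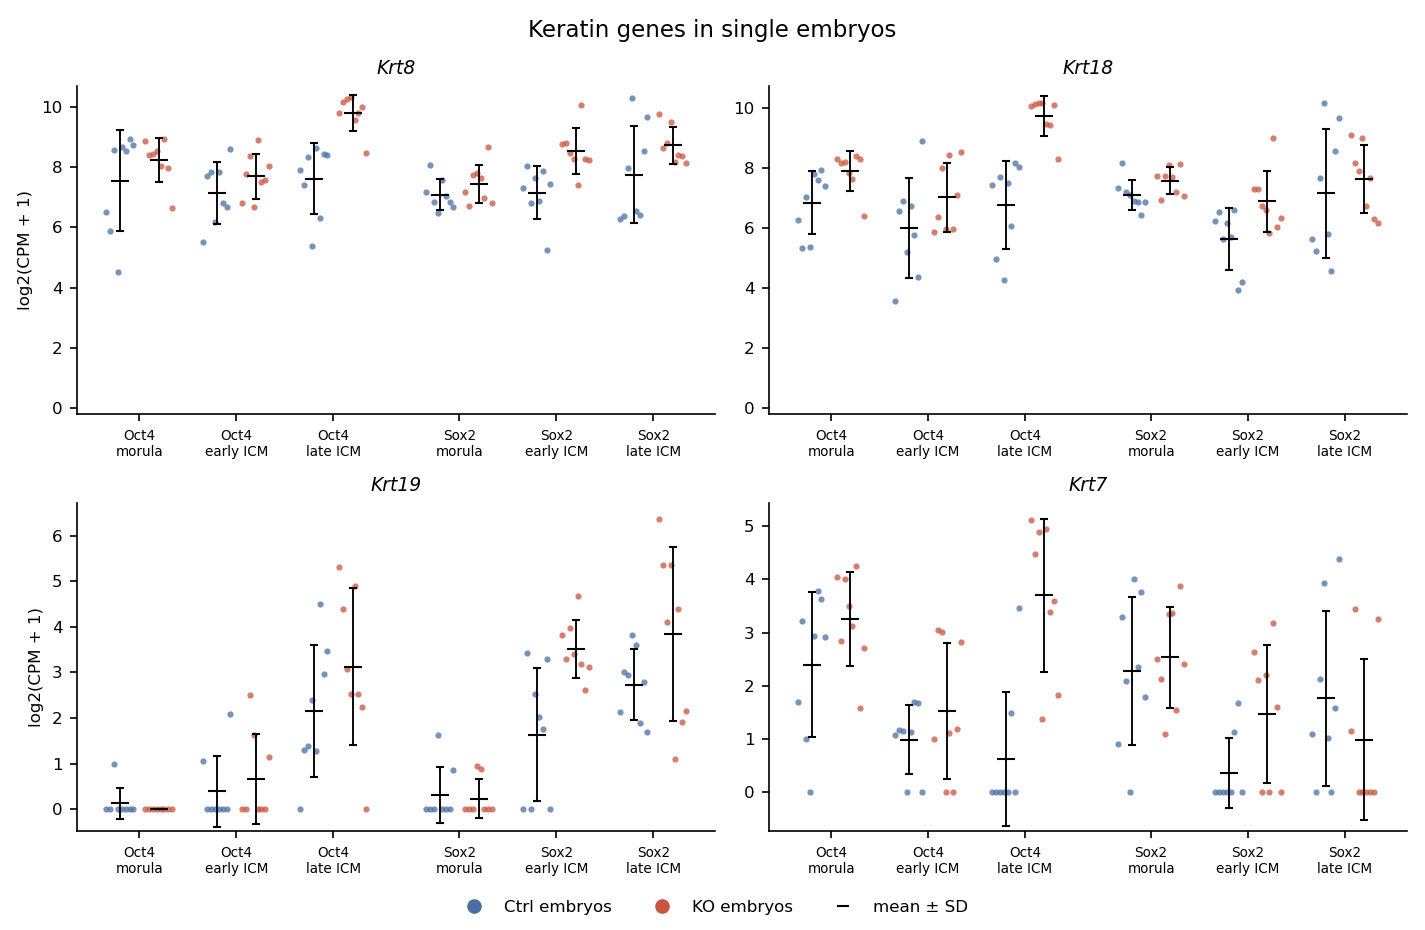
Level of Krt8, Krt18, Krt19 and Krt7 in each Ctrl and KO embryo, as log2(CPM + 1), by line and stage, with each point an embryo and the bar and whiskers the mean ± SD of these log2 values. The Oct4-KO late ICMs have the highest group means for Krt8 and Krt18, at 349.9 to 1290 and 310.4 to 1155 CPM, and Krt19 lies near 0 in morulae.

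Late ICM labels carry a leading 1 or 2, which splits each group into 2 label sets of unstated meaning. Within them the log2 ratio of Oct4-KO to Ctrl mean CPM, with 1 CPM added, was 2.27 and 1.56 for Krt8 and 3.20 and 1.78 for Krt18. The rise of Krt8 and Krt18 was thus present in both sets. For Krt7 the KO mean was 21.3 CPM in set 1, where no Ctrl embryo had a UMI, and 13.3 against 3.95 CPM in set 2. Krt19 was at 17.7 against 1.74 CPM in set 1 and at 9.29 against 12.8 CPM in set 2, so its direction differed between the sets.

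Markers of the TE moved with Krt8, Krt18 and Krt7. Of 12 TE markers, none of them a keratin, 9 were higher and none was lower in Oct4-KO late ICMs, where 9.25% of all genes were higher. Their median log2 fold change was 1.53, and their summed level ran from 2791 to 5807 CPM in KO and from 1286 to 2087 CPM in Ctrl. Gata3, a TE transcription factor, averaged 443 ± 109 CPM (SD, n = 8) in KO and 62.4 ± 33.4 in Ctrl (log2 fold change 2.85 ± 0.35, adjusted p = 7.50e-11). Cdx2, the factor that fixes TE fate, averaged 38.1 ± 21.1 and 10.1 ± 2.40 CPM. None of the 12 was at 0 UMIs in any ICM group, Ctrl groups included. The part of residual or newly formed TE cells in the keratin result was not tested.

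In Oct4-KO early ICMs the keratins did not pass. Krt8 ran from 101 through 203 to 475 CPM in KO and from 44.6 through 161 to 385 CPM in Ctrl, and the ranges overlapped (log2 fold change 0.45 ± 0.44, adjusted p = 0.52). Krt18 ran from 56.9 through 109 to 369 CPM in KO and from 10.9 through 73.4 to 471 CPM in Ctrl (0.59 ± 0.53, adjusted p = 0.47). One Ctrl embryo set the upper end, and without it (embryo 9) the Krt18 difference became 1.46 with an adjusted p of 0.0451. Krt7 and Krt19 held 20 and 7 UMIs over the 8 KO ICMs and 8 and 4 over the 8 Ctrl ICMs, and neither passed (adjusted p = 0.361 and 0.718). The ratio of Krt7 UMIs was 256.3%, with a 95% counting interval of 108.1 to 672.7% that leaves out the spread between embryos. In this comparison 1 of the 8 genes was called, Ezr, where 10.9% of all genes were called and 6.11% were lower.

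Gata3 was already higher in Oct4-KO early ICMs, at 332 ± 96.02 against 82.8 ± 61.6 CPM (log2 fold change 2.01 ± 0.33, adjusted p = 1.31e-06). The TE markers had 3 of 12 genes higher and none lower there, where 10.9% of all genes were called, and their summed level overlapped, at 1931 to 3553 CPM in KO and 1561 to 2611 CPM in Ctrl. A called rise of Gata3 thus stood beside keratin differences that missed the threshold; whether the keratin response differed between the early and late stages was tested as an interaction and is given with the stages.

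In the Sox2 knockout the called keratin difference in early ICMs was that of Krt8. Krt8 ran from 167 through 329 to 1072 CPM in Sox2-KO early ICMs and from 37.2 through 165 to 259 CPM in Ctrl. All 8 KO ICMs lay above the Ctrl median, and the ranges overlapped. The edgeR log2 fold change was 1.39 ± 0.44 (adjusted p = 0.0349), a 2.61-fold rise. The call was lost without any 1 of 4 embryos (Ctrl 5, Ctrl 9, Ctrl 11 or KO 11), with an adjusted p of up to 0.159.

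Krt18 in the same ICMs ran from 55.7 through 100.4 to 509.5 CPM in Sox2-KO and from 14.2 through 61.2 to 95.5 CPM in Ctrl. Its log2 fold change of 1.37 ± 0.55 was close to that of Krt8 but did not pass (adjusted p = 0.12), and it ranged from 0.80 to 1.52 as single embryos were left out. Krt19 ran from 5.10 through 9.20 to 24.5 CPM in KO and from 0 through 2.73 to 9.69 CPM in Ctrl, all 8 KO ICMs above the Ctrl median (1.64 ± 0.61, adjusted p = 0.0876). Without Ctrl embryo 4 the Krt19 difference passed (adjusted p = 0.041). With Msn, 2 of the 8 genes were called, both higher, where 3.27% of all genes were called and 1.57% were higher.

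The TE markers moved here too. In Sox2-KO early ICMs 5 of the 12 were higher and 1, Tfap2c, was lower, where 3.27% of all genes were called, and the summed level ran from 2197 to 4187 CPM in KO and from 1188 to 1949 CPM in Ctrl. Gata3 averaged 193 ± 70.6 against 42.9 ± 13.0 CPM, and Id2, a TE-enriched inhibitor of basic helix-loop-helix factors, 665 ± 264 against 68.8 ± 41.9 CPM. Their part in the Krt8 result was not tested.

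In Sox2-KO late ICMs only Krt19 was called among the 8 genes. It ran from 1.13 through 18.1 to 81.9 CPM in KO and from 2.23 through 6.30 to 13.2 CPM in Ctrl, and 5 of 8 KO ICMs lay above the Ctrl median (log2 fold change 1.95 ± 0.55, adjusted p = 0.0082). The call was lost in DESeq2 (adjusted p = 0.0669) and without KO embryo 1-1 (adjusted p = 0.0787), and by label set the KO and Ctrl means were 44.4 against 7.57 CPM in set 1 and 6.83 against 5.48 CPM in set 2. The Krt19 rise therefore rested mainly on set 1. Of all genes, 6.95% were called and 3.34% were higher, as 469 higher and 508 lower genes, or 379 and 628 when counts were scaled by total UMIs.

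Krt8 and Krt18 did not pass in the same late ICMs, where the Ctrl group was itself scattered. Krt8 ran from 282 through 366 to 863 CPM in Sox2-KO and from 75.7 through 170 to 1244 CPM in Ctrl (log2 fold change 0.30 ± 0.42, adjusted p = 0.72). Krt18 ran from 70.0 through 220 to 543 CPM in KO and from 22.7 through 128 to 1156 CPM in Ctrl (-0.40 ± 0.51, adjusted p = 0.675). Its log2 fold change ranged from -0.65 to 0.20 as single embryos were left out, so no direction can be read. All 8 KO ICMs had more Krt8 than the Ctrl median, yet 1 Ctrl ICM exceeded every KO ICM for Krt8 and 2 did so for Krt18. The TE markers had 4 of 12 genes higher and 1 lower, where 6.95% of all genes were called, and their summed level was 1914 to 4268 CPM in KO and 1094 to 2482 CPM in Ctrl.

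Keratins did not pass in morulae of either line with all 8 embryos of a group. Krt8 ran from 99.3 through 340.0 to 490.3 CPM in Oct4-KO morulae and from 22.1 through 374 to 484 CPM in Ctrl. Krt18 ran from 83.6 through 291 to 334 CPM and from 39.7 through 149 to 241 CPM, with 7 of 8 KO morulae above the Ctrl median (log2 fold change 0.90 ± 0.52, adjusted p = 0.511). Both genes were thus measured at over 20 CPM in every morula. Krt19 gave 0 UMIs over the 8 Oct4-KO morulae, which allows a mean level of up to 0.390 CPM (3 UMIs over the group, counting error only), and 1 UMI over the 8 Ctrl morulae. In Sox2-KO morulae the log2 fold changes of the 4 keratins ran from -0.36 to 0.46, all with an adjusted p of 1.00.

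Krt8 and Krt18 rose and fell together from embryo to embryo. On log2(CPM + 1), after subtraction of each group's mean, they correlated over all embryos of the 16 groups with Pearson's r = 0.87 and Spearman's rho = 0.88 (permutation p = 1e-05 for each, the smallest that 100000 permutations can give; adjusted p = 3.33e-05 over 10 pairs). The correlation was positive within all 16 groups, and r was 0.87 without the 2 embryos farthest from the median of Krt8. The pair thus tended to vary together within groups, where embryos shared line, genotype and stage but not library or depth. It did not vary in fixed proportion. Krt18 made up 10.6 to 50.2% of the pair's UMIs in Oct4 MWT late ICMs and 16.4 to 55.0% in Oct4 Ctrl early ICMs.

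Krt19 did not show this, and Krt7 was not among the pairs examined. Krt19 correlated with Krt8 at r = 0.11 and rho = 0.06 (permutation p = 0.251 and 0.518, adjusted p = 0.314) and with Krt18 at r = 0.19 and rho = 0.14 (p = 0.0696 and 0.171, adjusted p = 0.116). Krt8 correlated with Gata3 at r = 0.61 and rho = 0.57 and with Cdx2 at r = 0.52 and rho = 0.48 (permutation p = 1e-05 for each, adjusted p = 3.33e-05), positive in 16 and in 14 of the 16 groups. Without the 2 farthest embryos these were 0.60 and 0.49. Within groups, then, embryos with more Krt8 also had more UMIs of these TE factors, Ctrl groups included.

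**Figure D2:**
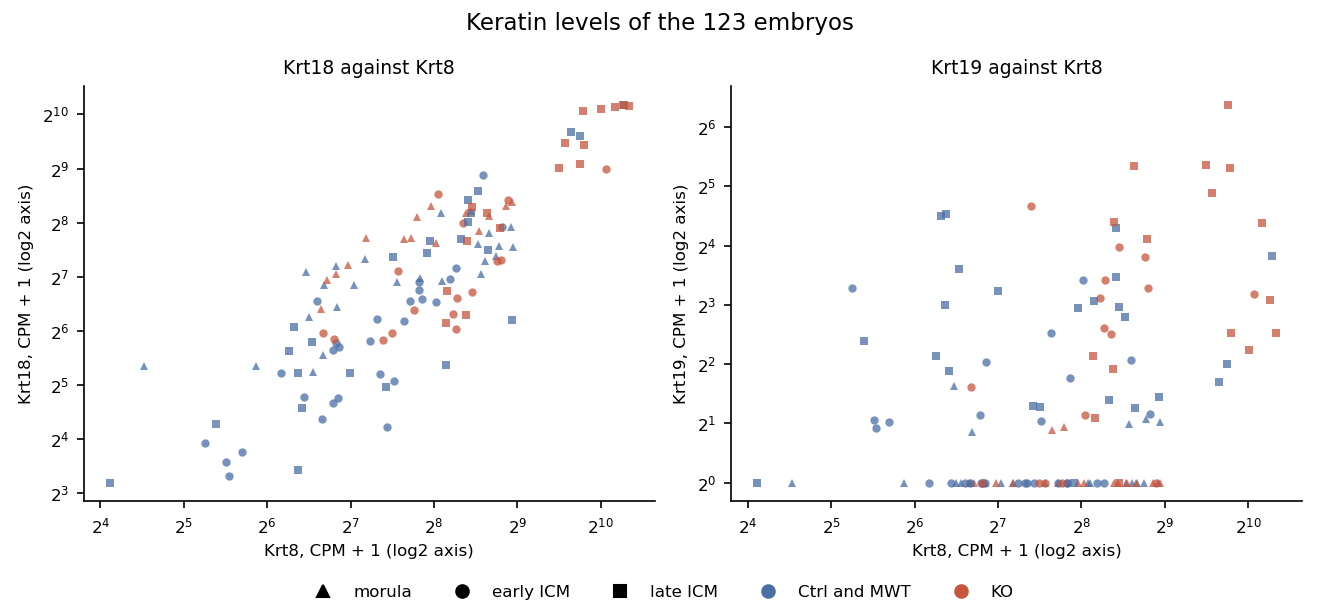
Krt18 (left) and Krt19 (right) against Krt8 in all embryos, each axis CPM + 1 on a log2 scale, each point an embryo shaped by stage and coloured for KO against Ctrl and MWT. Krt18 follows Krt8 along a line, with r = 0.87 after group means are removed, while Krt19 shows no such line, with r = 0.11.

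The balance within the pair also differed between genotypes. Krt18 made up 48.8 ± 3.32% (SD, n = 8) of the summed Krt8 and Krt18 UMIs in Oct4-KO late ICMs and 36.5 ± 10.4% in Ctrl, with overlapping ranges of 43.8 to 54.9% and 15.1 to 45.7%. The difference was 12.4 percentage points (exact two-sided permutation test, n = 8 a group, p = 0.000777, adjusted p = 0.00466 over 18 share tests). In the other 5 KO comparisons this share did not pass, with differences from -7.78 to 7.04 points. With UMIs pooled over each group these differences ranged from -11.6 to 11.1 points, and were 11.1 in place of 6.02 in Oct4 morulae, 2.03 in place of 7.04 in Oct4 early ICMs and -11.6 in place of -7.78 in Sox2 late ICMs. With 1 embryo left out, the unadjusted exact permutation p fell as low as 0.00886 in Oct4 morulae and 0.0449 in Oct4 early ICMs. In the Sox2 line it fell as low as 0.0261 in early ICMs and 0.0371 in late ICMs. A share of UMIs within an embryo does not depend on scaling between embryos.

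Differences of this share between stages and lines were not tested. In the Sox2 line Krt18 took 50.3 ± 7.17% of the pair in Ctrl morulae, 26.5 ± 7.29% in Ctrl early ICMs and 40.3 ± 10.5% in Ctrl late ICMs. In the Oct4 line the Ctrl values were 38.5 ± 12.3%, 31.8 ± 11.6% and 36.5 ± 10.4%, which differed from each other by less than their SD.

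Ezr fell at each stage of the Oct4 knockout. In morulae it ran from 0 through 2.95 to 10.4 CPM in Oct4-KO and from 7.84 through 18.5 to 57.4 CPM in Ctrl, with 34 and 192 UMIs in all. Every KO morula lay below the Ctrl median, and the ranges overlapped slightly. The edgeR log2 fold change was -2.45 ± 0.46 (adjusted p = 0.000508), and Ezr was the only 1 of the 8 genes called, where 0.804% of all genes were. In the same morulae 1 of 12 TE markers was higher, Hand1 (log2 fold change 1.54 ± 0.42, adjusted p = 0.0357), as was 1 of 9 primitive endoderm markers, Col4a1 (1.04 ± 0.29, adjusted p = 0.0439), and their part in the Ezr result was not tested.

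In early ICMs the groups separated. Ezr ran from 0.998 through 9.04 to 23.1 CPM in Oct4-KO and from 234 through 277 to 390.4 CPM in Ctrl, so every KO ICM lay far under the lowest Ctrl ICM. The edgeR log2 fold change was -4.73 ± 0.36 (adjusted p = 1.61e-19), 26.5-fold lower. Of all genes tested, 3.93% had groups that did not overlap in this comparison, and of the 8 genes 1 did.

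In late ICMs Ezr ran from 20.4 through 38.7 to 103 CPM in Oct4-KO and from 135 through 293 to 528 CPM in Ctrl, again without overlap (log2 fold change -2.51 ± 0.31, adjusted p = 7.21e-11). The share of all genes without overlap was 5.64% here, and of the 8 genes Krt18, Ezr and Sfn showed none. By label set the log2 ratio of mean CPM for Ezr was -2.24 and -2.73. Leaving out any 1 embryo kept the Ezr call at all 3 stages, with log2 fold changes of -2.76 to -2.18 in morulae, -4.99 to -4.52 in early ICMs and -2.72 to -2.38 in late ICMs.

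Sox2 loss left no called difference in Ezr. It ran from 199 through 271 to 437 CPM in Sox2-KO early ICMs and from 192 through 396 to 549 CPM in Ctrl (log2 fold change -0.36 ± 0.27, adjusted p = 0.495). In late ICMs it ran from 284 through 299 to 411 CPM and from 270.0 through 375 to 428 CPM (-0.19 ± 0.27, adjusted p = 0.72). In morulae the change was 0.30 ± 0.31 (adjusted p = 1.00). The ranges overlapped at each stage.

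Msn, the ERM paralog on the X chromosome, at chrX:96096042-96168552, was higher in Oct4-KO late ICMs, where Ezr was lower. In Oct4-KO late ICMs it ran from 61.2 through 135 to 267 CPM and in Ctrl from 11.6 through 37.3 to 91.8 CPM (log2 fold change 1.72 ± 0.31, adjusted p = 4.49e-06). All 8 KO ICMs lay above the Ctrl median, and the ranges overlapped. The log2 ratio was 1.66 and 1.54 in the 2 label sets. In early ICMs Msn ran from 11.4 through 36.7 to 62.9 CPM in KO and from 9.78 through 17.7 to 40.8 CPM in Ctrl and did not pass (0.79 ± 0.35, adjusted p = 0.0956), except without Ctrl embryo 9 (adjusted p = 0.0338).

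In Oct4-KO morulae Msn summed to 50 UMIs against 24 in Ctrl, and 1 KO embryo held 32.0 CPM. The log2 fold change of 1.04 ± 0.56 (adjusted p = 0.464) ranged from -0.14 to 1.33 as single embryos were left out, so no direction can be read. In the Sox2 line Msn was called in early ICMs, where it ran from 44.4 through 54.8 to 68.3 CPM in KO and from 15.4 through 21.7 to 32.8 CPM in Ctrl (1.29 ± 0.33, adjusted p = 0.00597). These groups did not overlap, as in 1.25% of all genes tested in that comparison. In Sox2-KO late ICMs Msn averaged 48.8 ± 12.9 against 40.3 ± 18.8 CPM and did not pass (0.27 ± 0.32, adjusted p = 0.65).

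Rdx, the third ERM gene, at chr9:52047173-52100463, showed small differences. In Oct4-KO late ICMs it ran from 39.8 through 54.5 to 72.9 CPM and in Ctrl from 68.3 through 94.5 to 112 CPM, with all 8 KO ICMs below the Ctrl median (log2 fold change -0.75 ± 0.18, adjusted p = 0.000716). In early ICMs the change was -0.53 ± 0.17 (adjusted p = 0.0172), with 7 of 8 KO ICMs below the Ctrl median. Both had an adjusted p under 0.05 and were under the fold required for a call. The adjusted p in early ICMs reached 0.0652 when single embryos were left out. In the Sox2 line its log2 fold changes were -0.19, 0.15 and -0.33 in morulae, early ICMs and late ICMs, with adjusted p of 0.213 or more.

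**Figure D3:**
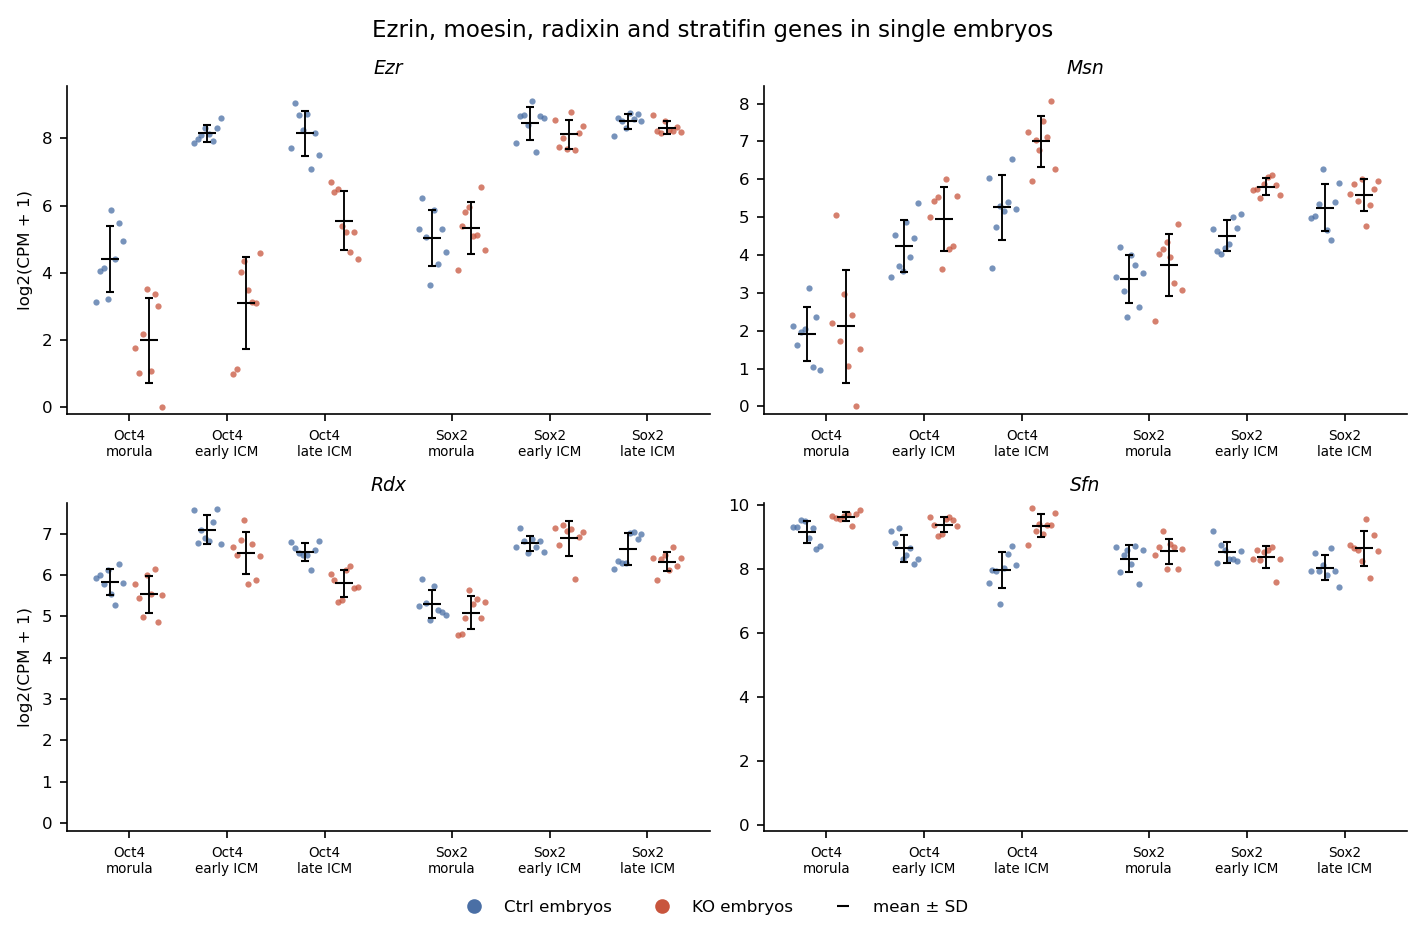
Level of Ezr, Msn, Rdx and Sfn in each Ctrl and KO embryo, as log2(CPM + 1), by line and stage, with each point an embryo and the bar and whiskers the mean ± SD of these log2 values. Ezr is at 0.998 to 23.1 CPM in Oct4-KO early ICMs and at 234 to 390.4 CPM in their Ctrl, while Msn is highest in Oct4-KO late ICMs, at 61.2 to 267 CPM.

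Ezr, Msn and Rdx encode close relatives, so their division was expressed as the Ezr share of the summed UMIs of the 3 genes. It was 64.3 ± 6.32% in Oct4 Ctrl early ICMs and 7.33 ± 4.74% in KO, a difference of -56.9 points (exact two-sided permutation test, n = 8 a group, p = 0.000155, adjusted p = 0.0014). In late ICMs it was 66.6 ± 11.8% and 22.0 ± 12.3%, a difference of -44.6 points with the same p from the exact test. The groups did not overlap in either, and 0.000155 is the smallest p that 8 embryos against 8 allow. Ezr thus supplied most ERM UMIs in Ctrl ICMs and a minority in Oct4-KO ICMs.

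In Oct4 morulae the Ezr share was 27.6 ± 14.2% in Ctrl and 7.70 ± 6.94% in KO (difference -19.9 points, exact permutation test, p = 0.00326, adjusted p = 0.014). In Sox2-KO early ICMs it was 61.1 ± 5.38% against 72.3 ± 6.93% (-11.2 points, exact permutation test, p = 0.00389, adjusted p = 0.014), with overlapping ranges. In Sox2-KO late ICMs it was 71.3 ± 3.35% against 72.3 ± 3.83%, and this difference of -0.996 points did not pass (exact permutation test, p = 0.582). The Sox2-KO early change stood beside a called rise of Msn and an Ezr change that was not called.

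**Figure D4:**
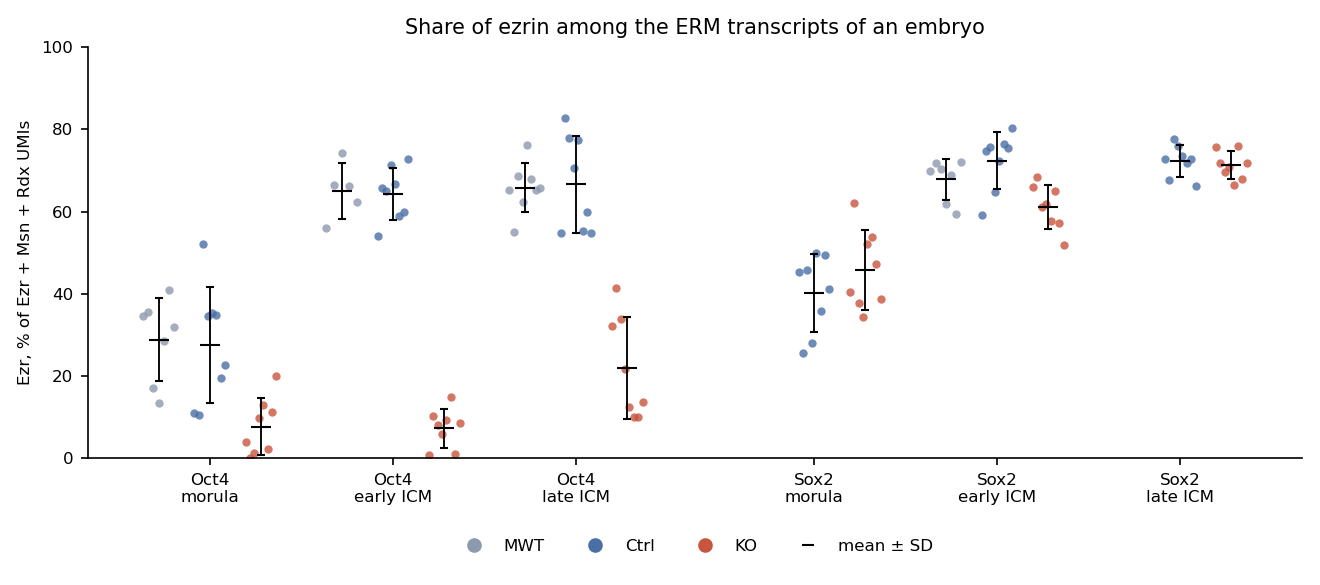
Ezr as a percentage of the summed Ezr, Msn and Rdx UMIs in each embryo, by line, stage and genotype, with the bar and whiskers the group mean ± SD. Ctrl ICMs of both lines average 64.3 to 72.3%, and Oct4-KO early and late ICMs average 7.33% and 22.0%.

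Across embryos within groups the ERM genes varied together only weakly. Ezr and Rdx correlated at r = 0.24 and rho = 0.25 (permutation p = 0.0249 and 0.0107, adjusted p = 0.0498 over 10 pairs), with r = 0.27 without the 2 farthest embryos. Ezr and Msn (r = 0.18, rho = 0.19, permutation p = 0.123 and 0.0536) and Msn and Rdx (r = 0.10, rho = 0.10, permutation p = 0.338 and 0.33) did not pass. Krt8 and Ezr correlated at r = 0.35 and rho = 0.33 (permutation p = 2e-05 and 0.00029, adjusted p = 5e-05, r = 0.32 without the 2 farthest embryos), positive in 12 of the 16 groups. Within groups, embryos with more Krt8 therefore tended to have more Ezr, although their group means went in opposite directions in Oct4-KO late ICMs.

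Sfn, at chr4:133600556-133602168 on the minus strand, was higher in Oct4-KO late ICMs, as were Krt8, Krt18 and Krt7. It ran from 434 through 665 to 961 CPM in Oct4-KO late ICMs and from 119 through 256 to 425 CPM in Ctrl, without overlap (log2 fold change 1.36 ± 0.19, adjusted p = 5.99e-09), and its log2 ratio was 1.63 and 0.96 in the 2 label sets. In Oct4-KO early ICMs it ran from 522 through 699 to 782 CPM against 282 through 373 to 626 CPM, all 8 KO ICMs above the Ctrl median (0.71 ± 0.19, adjusted p = 0.00247), which was under the fold required for a call. In morulae it ran from 653 through 806 to 919 CPM against 393 through 626 to 746 CPM, again with all 8 KO embryos above the Ctrl median, and did not pass (0.47 ± 0.18, adjusted p = 0.219).

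Over morulae, early ICMs and late ICMs the mean of Sfn was 800.5, 678 and 673 CPM in Oct4-KO and 585, 414 and 264 CPM in Ctrl. In the Sox2 line Sfn ran from 209 through 395 to 765 CPM in KO late ICMs and from 171 through 245 to 403 CPM in Ctrl (0.66 ± 0.19, adjusted p = 0.00945). It stayed under the fold for a call, and its adjusted p reached 0.07 when single embryos were left out. In Sox2-KO early ICMs the change was -0.18 ± 0.19 (adjusted p = 0.658). Sfn and Krt8 did not vary together within groups (r = -0.05, rho = -0.12, permutation p = 0.619 and 0.204).

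**Figure D5:**
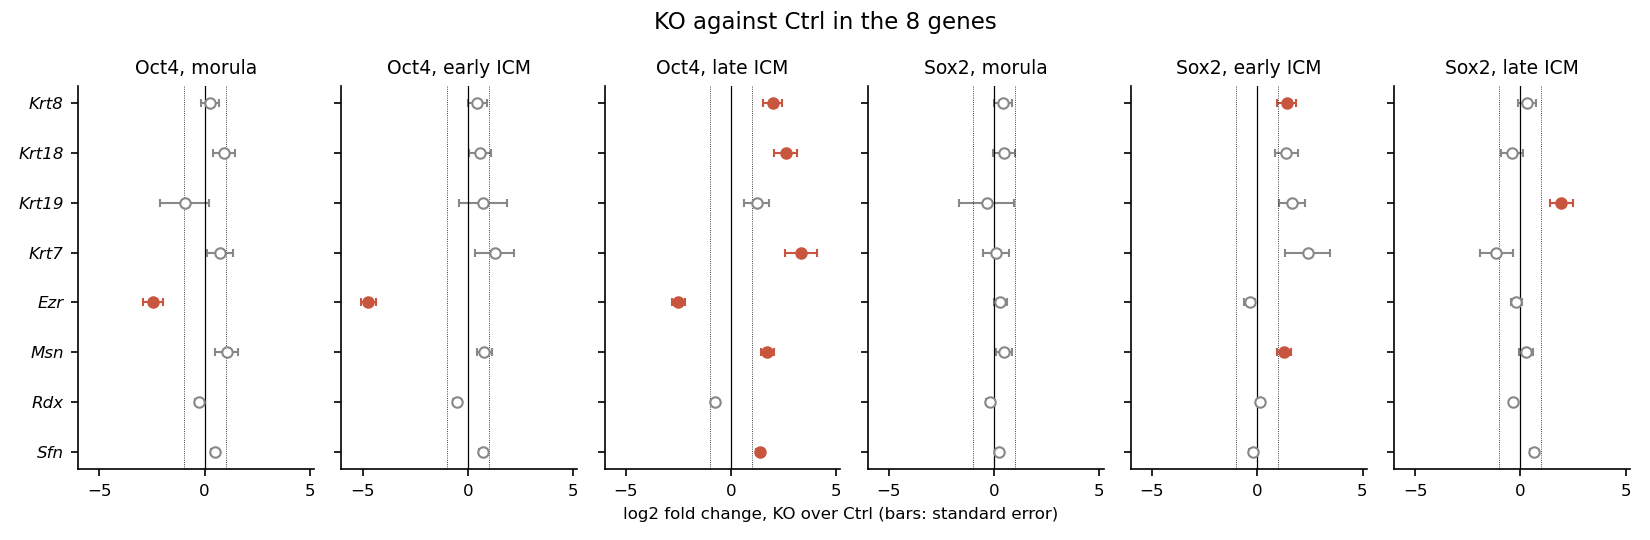
Log2 fold change of KO over Ctrl ± SE for the 8 genes in the 6 KO comparisons, with called genes filled in red and dotted lines at a log2 fold change of 1 in either direction. The called values run from -4.73 for Ezr in Oct4-KO early ICMs to 3.32 for Krt7 in Oct4-KO late ICMs, and no gene is called in Sox2-KO morulae.

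None of the 8 genes was called in Sox2-KO morulae by edgeR or by DESeq2, and 0 had an unadjusted p under 0.05, where 0.00712% of all genes were called. Whether the lines responded differently was tested directly, as the KO effect in the Oct4 line minus that in the Sox2 line, called at an adjusted p under 0.05. For Ezr the difference passed at each stage, with -2.75 ± 0.56 in morulae (adjusted p = 0.00445), -4.36 ± 0.45 in early ICMs (adjusted p = 1.93e-12) and -2.32 ± 0.41 in late ICMs (adjusted p = 2.04e-05). In early ICMs Sfn also passed (0.89 ± 0.26, adjusted p = 0.0191). The share of all genes with such a difference was 0.413% in morulae and 8.12% in early ICMs.

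In late ICMs 4 of the 8 genes responded differently between the lines, where 8.67% of all genes did. Besides Ezr these were Krt18 (3.00 ± 0.73, adjusted p = 0.00335), Krt7 (4.47 ± 1.11, adjusted p = 0.00417) and Msn (1.46 ± 0.44, adjusted p = 0.024), each higher for the Oct4 line. Krt8 missed the threshold (1.68 ± 0.61, adjusted p = 0.0655), as did Sfn (0.71 ± 0.26, adjusted p = 0.0788). The called Krt19 rise in Sox2-KO late ICMs was not shown to differ from that in the Oct4 line (-0.73 ± 0.84, adjusted p = 0.674). Krt7 averaged 2.46 ± 4.21 CPM in Sox2-KO late ICMs and 5.22 ± 7.61 CPM in their Ctrl. Its log2 fold change there was -1.15, and -2.08 to -0.45 as single embryos were left out. For Krt18 in the same comparison that range was -0.65 to 0.20.

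The KO effect itself was compared between successive stages. In the Oct4 line only Ezr passed among the 8 genes, with an effect lower by -2.28 ± 0.67 in early ICMs than in morulae (adjusted p = 0.0295) and higher by 2.22 ± 0.47 in late than in early ICMs (adjusted p = 0.00198), where 4.84% and 4.46% of all genes passed. For Krt8 and Krt18 the late effect exceeded the early one by 1.53 ± 0.61 and 2.01 ± 0.74 without passing (adjusted p = 0.146 and 0.105). In the Sox2 line none passed in edgeR, with 0 of the 8 at an unadjusted p under 0.05 between morula and early ICM and 4 between early and late ICM, where 1.15% and 0.0427% of all genes passed. DESeq2 called none of the 8 in either.

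From morula to early ICM all 3 ERM genes rose in the Ctrl embryos of both lines. In Oct4 Ctrl, Ezr rose from a mean of 25.0 ± 17.6 CPM in morulae to 288 ± 52.4 CPM in early ICMs (log2 fold change 3.50 ± 0.32, adjusted p = 1.84e-16), and Msn from 3.18 ± 2.15 to 19.9 ± 10.6 CPM (2.60 ± 0.48, adjusted p = 3.07e-06). Rdx rose from 57.2 ± 12.2 to 139 ± 35.2 CPM (1.26 ± 0.18, adjusted p = 1.88e-09). Krt7 fell, from 6.12 ± 4.74 to 1.14 ± 0.838 CPM (-2.31 ± 0.83, adjusted p = 0.0163). These were 4 of the 8 genes, where 29.0% of all genes were called.

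In Sox2 Ctrl the same step called 6 of the 8 genes, where 31.9% of all genes were called. Ezr rose from 36.8 ± 20.7 to 365 ± 112 CPM (log2 fold change 3.28 ± 0.31, adjusted p = 3.29e-16), Rdx from 39.4 ± 10.5 to 108 ± 15.04 CPM and Msn from 10.2 ± 4.66 to 22.6 ± 6.83 CPM. Krt19 rose from 3 to 27 UMIs over the 8 embryos, a ratio of 1031% with a 95% counting interval of 317.1 to 5308%. Krt18 fell from 145 ± 62.1 to 58.0 ± 30.8 CPM (-1.34 ± 0.55, adjusted p = 0.0327), and Krt7 fell from 51 to 3 UMIs.

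Oct4-KO embryos took a different path for Ezr. From morula to early ICM it went from 4.35 ± 4.03 to 10.7 ± 8.07 CPM and was not called (log2 fold change 1.22 ± 0.53, adjusted p = 0.051), although 3 other scalings or filters and DESeq2 called it (adjusted p from 0.00836 to 0.0489). Msn rose (2.34 ± 0.40, adjusted p = 6.98e-07) and Krt7 fell (-1.76 ± 0.69, adjusted p = 0.0294), which made 2 of the 8 genes where 26.3% of all genes were called. The Krt7 call was lost in DESeq2 (adjusted p = 0.0541). Rdx went from 47.2 ± 14.5 to 96.2 ± 34.1 CPM (0.99 ± 0.18, adjusted p = 2.48e-06), just under the fold for a call, and was called by the same alternatives as Ezr. In Sox2-KO embryos 5 of the 8 rose at this step, Krt8, Krt19, Ezr, Msn and Rdx, where 32.5% of all genes were called. Krt8 rose from 190 ± 97.3 to 423 ± 276 CPM there (1.10 ± 0.43, adjusted p = 0.0266).

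From early to late ICM the Oct4-KO embryos gained in most of the genes. Krt8 (log2 fold change 2.05 ± 0.44), Krt18 (2.45 ± 0.53), Krt19 (3.58 ± 0.75), Krt7 (2.54 ± 0.67), Ezr (2.33 ± 0.39) and Msn (2.06 ± 0.31) all rose, with adjusted p from 6.96e-08 to 0.00173, making 6 of the 8 where 16.0% of all genes were called. Rdx was lower by less than the fold required (-0.76 ± 0.18, adjusted p = 0.00043). Ezr thus rose between these stages in KO embryos from a level far under Ctrl and remained under it. At the same step 4 of 12 TE markers were higher and 1 was lower, and 4 of 8 epiblast markers were lower and 0 higher. Their part in these rises was not tested.

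In Oct4 Ctrl the same step called 2 of the 8, where 15.6% of all genes were called. Krt19 rose from 4 to 30 UMIs (log2 fold change 3.07 ± 0.91, adjusted p = 0.0056), with 3 of the 4 early UMIs in embryo 9, and Msn rose (1.12 ± 0.35, adjusted p = 0.00839), while Krt8 (0.51 ± 0.44) and Krt18 (0.44 ± 0.53) did not pass. In Sox2 Ctrl 2 of the 8 were called where 2.90% of all genes were. These were Krt18 (2.52 ± 0.55, adjusted p = 0.00146), for which only 4 of 8 late ICMs exceeded the early median, and Krt7, from 3 to 38 UMIs, of which late embryos 2-6 and 1-10 held 18 and 13. In Sox2-KO none of the 8 was called in edgeR or in DESeq2, with 2 at an unadjusted p under 0.05, where 1.07% of all genes were called.

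The MWT embryos were set beside the Ctrl embryos, which lacked the maternal product. For the Oct4 early ICMs the comparison may also be one of inhibitor treatment, and for both Oct4 ICM stages the MWT stage is uncertain. None of the 8 genes was called in edgeR or in DESeq2 between MWT and Ctrl in Oct4 morulae, Oct4 early ICMs, Oct4 late ICMs or Sox2 early ICMs, where 0.0646%, 0.373%, 0.797% and 2.58% of all 13923 genes tested were called. At an unadjusted p under 0.05 the counts were 1, 0, 1 and 1. The nearest was Sfn in Oct4 late ICMs, at 408 ± 149 CPM in MWT and 264 ± 93.5 CPM in Ctrl (log2 fold change 0.63 ± 0.19, adjusted p = 0.0697). Ezr was at 252 ± 55.6 CPM in MWT and 310 ± 136 CPM in Ctrl late ICMs (-0.30 ± 0.27, adjusted p = 0.686).

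The Ctrl groups of the lines were also set side by side. Msn was lower in Oct4 than in Sox2 Ctrl morulae, at 3.18 ± 2.15 against 10.2 ± 4.66 CPM (log2 fold change -1.70 ± 0.51, adjusted p = 0.0098), as 1 of the 8 genes where 6.98% of all genes were called. Krt19 was lower in Oct4 than in Sox2 Ctrl early ICMs, with 4 UMIs against 27 (-2.41 ± 0.93, adjusted p = 0.0441), where 9.94% were called. In late ICMs none of the 8 was called in edgeR or in DESeq2, with 1 at an unadjusted p under 0.05, where 2.63% were called. The line cannot be told apart from any difference in when and how its embryos were processed.

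Ordered by mean CPM over the 16 groups, each gene had few steps larger than its spread. For Krt8, Krt18 and Msn the Oct4-KO late ICMs stood first, and the gap to the next group was the 1 of 15 neighbouring gaps that exceeded the larger SD of the pair. For Sfn the Oct4-KO morulae, early ICMs and late ICMs held the first 3 places, of which only the first was set apart by more than the SD. For Ezr the last 3 were Oct4 Ctrl morulae, Oct4-KO early ICMs and Oct4-KO morulae, and the gap above the SD fell between the Ctrl, MWT and Sox2-KO ICMs and all other groups. For Rdx the gap above the SD separated the ICM groups, other than Oct4-KO late ICMs, from the remaining groups. For Krt19 and Krt7 no neighbouring gap exceeded the SD.

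Embryos of one group varied most for Krt19, Krt7 and Krt18 and least for Rdx and Sfn. The coefficient of variation over the embryos of a group had a median of 125% for Krt19, 93.6% for Krt7, 70.1% for Krt18 and 55.1% for Krt8 over the groups. It was 53.1% for Msn, 39.9% for Ezr, 26.1% for Sfn and 22.6% for Rdx. The low counts of Krt19 and Krt7 enter these values, since few UMIs per embryo carry a large counting error.

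Genes with related roles were followed as lists. Of 33 other keratin genes in the table only 3 passed the filter in the Ctrl and KO fit and none was called in any KO comparison, and their summed level ran from 0 to 22.4 CPM per embryo. Most other keratins were thus at or near 0. Of 9 genes for plakins, plakophilin and plakoglobin, which fasten keratins to desmosomes and other partners, 3 were higher and 1 lower in Oct4-KO early ICMs and again in late ICMs, and in the Sox2 line 2 were higher in early ICMs and 1 in late ICMs. The shares of all genes called there were 10.9%, 18.1%, 3.27% and 6.95%. In late ICMs the list's median log2 fold change was 1.09 for the Oct4 knockout and -0.06 for the Sox2 knockout.

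Desmoplakin (Dsp), which anchors keratins at desmosomes, was called in all 4 KO ICM comparisons. It averaged 102 ± 24.2 against 39.6 ± 13.8 CPM in Oct4-KO and Ctrl early ICMs and 146 ± 33.9 against 27.0 ± 10.5 CPM in late ICMs (log2 fold change 2.45 ± 0.35, adjusted p = 1.58e-08). In the Sox2 line it averaged 234 ± 52.0 against 57.9 ± 39.4 CPM in early ICMs (1.99 ± 0.31, adjusted p = 1.95e-06) and 174 ± 44.4 against 28.6 ± 14.5 CPM in late ICMs (2.60 ± 0.34, adjusted p = 2.81e-09). Pkp2, a desmosomal plaque protein, averaged 46.4 ± 10.5 against 10.3 ± 2.23 CPM in Oct4-KO and Ctrl late ICMs. Dystonin (Dst), a plakin of hemidesmosomes, fell in early and late ICMs of the Oct4 knockout (-1.55 ± 0.36 and -1.68 ± 0.33) and rose in early ICMs of the Sox2 knockout (1.08 ± 0.27).

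Of 16 ERM partners and regulators 13 were tested, and called changes appeared only in Oct4-KO late ICMs among the 6 KO comparisons. There 2 were higher and 1 was lower, where 9.25% of all genes were higher and 8.85% lower. Epb41l5, a FERM-domain protein, averaged 63.4 ± 27.0 against 22.7 ± 23.1 CPM (log2 fold change 1.55 ± 0.29, adjusted p = 1.06e-05), and Pdzk1, a PDZ scaffold, 47.6 ± 29.2 against 21.7 ± 12.8 CPM (1.15 ± 0.45, adjusted p = 0.0399). The lower gene was Icam2, an adhesion receptor that binds ERM proteins, with no UMI in the 8 KO ICMs and a mean of 6.21 CPM in Ctrl; it lies outside the naming rule. The kinases that phosphorylate ERM proteins (Stk10, Slk, Rock1 and Rock2) were not called in any KO comparison.

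Of 14 genes of the actin cortex 13 were tested. Myh10, non-muscle myosin heavy chain IIB, averaged 400 ± 201 against 186 ± 82.7 CPM in Oct4-KO and Ctrl late ICMs (log2 fold change 1.13 ± 0.22, adjusted p = 2.87e-05), 409 ± 53.2 against 172 ± 45.2 CPM in Sox2 early ICMs and 449 ± 115 against 194 ± 109 CPM in Sox2 late ICMs, and was called in each. It was the 1 gene of the list called in Sox2-KO early ICMs, where 3.27% of all genes were called. In the late ones, where 6.95% were called, filamin A (Flna) was lower, at 12.75 ± 8.77 against 29.8 ± 30.5 CPM (-1.21 ± 0.42, adjusted p = 0.0413). In Oct4-KO late ICMs 3 of the list were higher, Myh9 among them (1.20 ± 0.21), and 2 were lower, alpha-actinin 1 (Actn1, -1.62 ± 0.22) and Flna (-1.21 ± 0.44), so 5 of 13 were called where 18.1% of all genes were. Flna averaged 13.45 ± 8.38 against 30.4 ± 41.3 CPM there, so in both lines its Ctrl SD exceeded its Ctrl mean. Vinculin (Vcl) was the 1 gene called in Oct4-KO early ICMs, at 18.4 ± 9.17 against 49.8 ± 17.04 CPM. The 6 other 14-3-3 genes had no called member in any KO comparison, those with 18.1% (Oct4 late ICM) and 10.9% (Oct4 early ICM) of all genes called included.

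Markers of the other cell types in an ICM are given for reference. Of 8 epiblast markers 5 were lower in Oct4-KO early ICMs, 7 in the late ones and 3 in ICMs of each stage of the Sox2 knockout, with none higher, where 6.11% and 8.85% of all genes were lower in the Oct4 comparisons and 3.27% and 6.95% were called in either direction in the Sox2 comparisons. Of 11 primitive endoderm markers 9 were tested, and in Oct4-KO late ICMs 2 were higher (Dab2 at 736 ± 220 against 153 ± 61.3 CPM and Gata6 at 422 ± 98.0 against 180 ± 85.6 CPM) and 4 were lower, where 9.25% of all genes were higher and 8.85% lower; the lower ones included Sox17 at 0.793 ± 2.24 against 80.2 ± 138 CPM. In Oct4-KO early ICMs 1 of the 9 was higher, the clathrin adaptor Dab2 (2.45 ± 0.35), and 2 were lower, the receptor gene Pdgfra among them (-2.31 ± 0.50, adjusted p = 0.000264), where 10.9% of all genes were called. In the Sox2 knockout 1 was higher in early ICMs, again Dab2, and 1 was lower in late ICMs. The part of such cells in the Ezr, Msn and Sfn results was not tested.

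By likeness over the 16 group means of log2(CPM + 1), with Pearson's r as the measure, the genes closest to Krt8 were Brk1 (0.93), Cttn (0.91) and Epn3 (0.90), and those closest to Krt18 were Efhd2 (0.93), S100a11 (0.93) and Plat (0.92). Ezr was closest to Shf, Glud1 and Uhrf1 (0.96 each), Msn to Msra (0.97), Dstn (0.96) and Usp24 (0.95), and Rdx to Impa2 (0.95), Tmem245 and Gstcd (0.94 each). Sfn was closest to Dnajc15 and Jpt1 (0.90 each) and Fbxw9 (0.88). For Krt19 these were Selenop (0.94), Obsl1 and Svbp (0.93 each), and for Krt7 Ap2a2 (0.94), Efna1 and Cryab (0.92 each). Among the 8 genes themselves the pair Krt8 and Krt18 had r = 0.84, Krt19 and Msn 0.81, and Krt18 and Krt7 0.79. The most opposed pairs were Krt7 and Rdx (-0.78), Ezr and Sfn (-0.77) and Krt7 and Ezr (-0.73). All are over the same 16 means, which share lines and stages.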

How the data were processed

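Single-embryo 3′-enriched RNA-seq libraries with UMIs were made from mouse embryos in 16 groups. The authors trimmed poly-A sequence with cutadapt, aligned reads to mm10 with TopHat2 and GENCODE vM23, assigned them to genes with featureCounts and corrected UMIs with UMI-tools and TRUmiCount. The deposited values used here are raw UMI counts per gene, and versions are not given in the sources used here. A deposited table of rlog values from DESeq2, on a log2 scale, was not used here. Groups came from the sample titles.

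Counts were tested with the edgeR quasi-likelihood test (edgeR 4.0.16, limma 3.58.1, R 4.3.3) with TMM scaling. A gene was kept when 0.5 or more of the embryos at 1 stage or another had a UMI of it, which left 14053 genes for the Ctrl and KO embryos and 13923 with the MWT embryos added (used only for MWT comparisons). Calls required a log2 fold change of 1 or more in either direction with an adjusted p (Benjamini-Hochberg) under 0.05, and interactions at an adjusted p under 0.05. SE is the log2 fold change divided by the square root of F. Shares were compared by exact two-sided permutation tests over embryos. Intervals (95%) and the floor of 3 UMIs cover counting error only. Correlations used log2(CPM + 1) and 100000 permutations within groups. The labels do not say which embryos shared a litter, so p-values measure the spread between embryos.

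The genes named are the 8 keratin, ERM and Sfn genes, Pou5f1 and Sox2, up to 2 lowest and 2 highest called genes of each list at 20 CPM or more in each KO comparison, and the 3 genes most alike to each of the 8. Icam2, Stk10, Slk, Rock1 and Rock2 were named outside this rule, after their values were seen. Cdx2 met the rule in Sox2-KO late ICMs and was in 1 of the 10 correlation pairs, but its Oct4 late ICM values lie outside the rule. The genes and lists were chosen with earlier results of these data known. Alternatives were DESeq2 size factors, scaling by total UMIs, no filter, the compared groups alone, DESeq2 1.42.0 as the test, each embryo left out in turn, pseudocounts, pooled shares, the label set of late ICMs as a block, and the replicate number as a block. Of 416 pairs of embryos within a group, none had counts as alike as a library deposited more than once would (lowest chi-square per gene 2.41). The test was checked on simulated counts. Strand setting was not given, and the promoter sequences are RefSeq's.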

Additional observations from a re-analysis of the deposited data

Results flagged for a closer look

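Among the 128 sets of values tested for a single embryo standing apart (8 genes in 16 groups), 11 were marked, and chance flags about 1 in 20 groups. In Oct4-KO morulae embryo 12 was low for Krt8 (99.3 CPM, others 247.9 to 490.3) and for Krt18 (83.6 CPM, others 196.9 to 334.3). In Oct4-KO late ICMs embryo 2-7 was low for Krt8 (349.9 CPM, others 756.7 to 1290) and for Krt18 (310.4 CPM, others 692.6 to 1155). The pair thus marked the same embryo in both groups. In Sox2-KO early ICMs embryo 11 was high for Krt18 (509.5 CPM, others 55.69 to 156.6) and low for Rdx (59.1 CPM, others 105.1 to 145.9), and embryo 17 was low for Sfn (192.6 CPM, others 312.4 to 414.6). In Sox2 Ctrl early ICMs embryo 11 was low for Krt8 (37.2 CPM, others 109.8 to 259.4). Krt7 in Oct4 Ctrl late ICM embryo 2-9 was 10.1 CPM with the others at 0 to 1.80, Krt19 in Oct4 Ctrl morula 7 was 0.979 CPM, which is 1 UMI with the others at 0, and Msn in Oct4 MWT morula 5 was 0 CPM with the others at 4.57 to 16.1.

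The knockout effect differed between lines or stages for 5 of the genes, by the edgeR interaction test. The difference of log2 fold changes, Oct4 line minus Sox2 line, was -2.75 for Ezr in morulae, -4.36 for Ezr and 0.89 for Sfn in early ICMs, and -2.32 for Ezr, 3.00 for Krt18, 4.47 for Krt7 and 1.46 for Msn in late ICMs. Within the Oct4 line the Ezr effect changed by -2.28 from morula to early ICM and by 2.22 from early to late ICM.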

How the results depend on the processing

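The number of the 8 genes called was within 1.5 times the main count in 26 of 27 comparisons under DESeq2 size factors, 26 of 27 under scaling by total UMIs, 19 of 20 without the detection filter, 6 of 6 with the compared groups alone, 2 of 2 with the late label set as a block and 26 of 27 by DESeq2. The exceptions were Oct4-KO early ICM against morula, with 4 of the 8 (Ezr and Rdx added; DESeq2 added both and lost Krt7) instead of 2 under the first 3 of these, and Sox2-KO late ICM, with 0 by DESeq2 (Krt19, adjusted p = 0.0669). Krt8 late against early in Sox2 Ctrl was called without the filter (adjusted p = 0.0454), and Krt18 in Sox2-KO early ICM with the compared groups alone (adjusted p = 0.0315). By DESeq2 the KO effect on Rdx differed between the lines in early ICM (-0.68, adjusted p = 0.0483; 0.0632 in edgeR). All genes called numbered 15 in Oct4 MWT against Ctrl morulae without the filter and by DESeq2 (9 in the main test), and 69 by DESeq2 for the Sox2-line change between early and late ICM (6 in the main test). Scaling by total UMIs turned 469 higher and 508 lower genes in Sox2-KO late ICM into 379 and 628, and shifted the median log2 fold change of Oct4 Ctrl early ICM against morula by 0.10. With single embryos left out, 1 to 3 of the 8 genes were called in Oct4-KO early ICM, 1 to 3 in Sox2-KO early ICM and 0 to 1 in Sox2-KO late ICM, and the 6 Oct4-KO late calls were kept each time. Left out in the same way, the Krt18 share differed by 4.20 to 9.73 points in Oct4 morulae, 4.25 to 10.4 in Oct4 early ICM, 0.308 to 3.63 in Sox2 morulae, -4.64 to -1.17 in Sox2 early ICM and -10.5 to -5.83 in Sox2 late ICM, and the Krt19 share of Krt18 and Krt19 by -6.52 to -3.02 in Oct4 late ICM (-6.40 without Ctrl 1-4) and -0.287 to 6.93 in Sox2 early ICM. Pooled over the group, that last share differed by 7.27 points in Sox2 late ICM, against 0.0864 as a mean of embryos. The causes were not tested.

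Deviations of same-numbered embryos of a line and stage correlated at -0.0756 to 0.196, and 6 of 13 were best with their own number. With 2 to 4 shared numbers in a comparison, this check cannot decide whether such embryos share more than a number. The fit with this number as a block used only the embryos with shared numbers, 2 to 4 pairs. It called 3 of the 8 genes in Oct4 morulae (Krt8, Krt18 and Krt7, of 282 genes in all; Ezr was lost at an adjusted p of 0.172), 2 in Oct4 early ICM (834 genes), 4 in Sox2 early ICM (418 genes) and 2 in Sox2 late ICM (638 genes). The same embryos without the block gave 157 genes in Oct4 morulae, with Krt18 called (adjusted p = 5.26e-05) and Ezr not (adjusted p = 0.357), 851 genes with 1 of the 8 in Oct4 early ICM, 227 with 2 of the 8 in Sox2 early ICM, and 320 genes with 0 of the 8 in Sox2 late ICM. Oct4 late ICM and Sox2 morulae shared too few numbers for it. Low counts limit Krt19 and Krt7, which held under 10 UMIs over a whole group in several groups.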
